A study of Mus musculus with 7 samples.

Results

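The lysosomal genes examined here were the cathepsins, the lysosome-associated membrane proteins (LAMPs) and the subunits of the vacuolar proton pump (V-ATPase), matched by gene symbol: every symbol that starts with Atp6v, that is Cts followed by 1 letter, or that is Lamp followed by a digit. This gave 47 of the 51426 genes in the liver RNA sequencing tables, among them 2 pseudogene copies of Atp6v0c. Of the 47 genes, 28 had at least 10 counts in every library and were compared between TET1 KO and WT livers, 12 had fewer counts in at least 1 library, and 7 had no counts in any library. The livers came from 3 WT and 4 TET1 KO male mice fed a high-fat diet (HFD) for 16 weeks from 8 weeks of age, and no liver on normal chow was analysed here. TET1 KO was a whole-body germline deletion, bred from heterozygous B6;129S4-Tet1tm1.1Jae/J mice, whereas the labels give C57BL/6J as the strain of both genotypes. TET1 is an enzyme that oxidizes 5-methylcytosine in DNA. The comparison asks how hepatic mRNA under an HFD differs when TET1 is missing from every tissue, so an effect within the liver and one that reaches it from other organs cannot be told apart.

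The lysosome is the acidic compartment in which cells degrade proteins, lipids and sugars delivered by endocytosis and autophagy. Its acidity comes from the V-ATPase, a rotary pump whose peripheral V1 sector hydrolyses ATP and whose membrane-embedded V0 sector moves protons. Cathepsins are the proteases that work in this acid, and LAMP1 and LAMP2 are heavily glycosylated proteins of the limiting membrane. Transcription factors of the MiT/TFE family, TFEB among them, are known to bind E-box sequences of the CLEAR type in the promoters of many lysosomal genes. In the liver, lysosomes also hydrolyse lipid droplets and lipoprotein lipids.

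Library depth lay between 15005277 counts (TET1 KO replicate 2) and 22746138 counts (WT replicate 2). Levels are given as CPM, the count scaled to a common library size with TMM factors. Tet1 itself was hit by 1, 4 and 1 reads in WT livers and by 2, 1, 4 and 1 in TET1 KO livers. It was near the floor of 3 counts in both genotypes, so the deletion could not be checked from these counts. The 9 hepatocyte markers summed to between 64824 and 86395 CPM in WT and between 76356 and 86120 CPM in TET1 KO livers, so the libraries carried the labelled tissue, with 0 called in edgeR and Apoa1 called higher in DESeq2. All 16 Kupffer cell and macrophage markers had counts, and their sum lay between 312 and 522 CPM in WT and between 247 and 519 CPM in TET1 KO livers. The sum of the 5 cholangiocyte markers was higher in every TET1 KO liver (46.1 to 68.0 CPM) than in any WT liver (29.7 to 37.8 CPM), with 0 of 5 called in edgeR and 2 called higher in DESeq2 (Sox9 and Epcam). The 7 stellate cell markers summed to between 79.6 and 149 CPM in WT and between 64.2 and 91.9 CPM in TET1 KO livers, with Rgs5 called lower in edgeR and Rgs5, Col3a1 and Col1a1 in DESeq2. The sum of the 5 liver endothelial markers was lower in every TET1 KO liver (106 to 124 CPM) than in any WT liver (126 to 128 CPM), while each marker alone overlapped between the genotypes, with 0 called in edgeR and Lyve1 called lower in DESeq2. Neutrophil markers summed to between 3.32 and 36.0 CPM in WT and between 4.25 and 13.0 CPM in TET1 KO livers, and those of T and NK cells and of B cells reached at most 9.44 and 7.04 CPM in any liver. In whole-liver RNA, fewer cells of a type and less RNA per cell cannot be told apart. The part of these marker levels in the results was not tested.

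None of the 28 tested genes passed an adjusted p of 0.05 in either direction in edgeR's quasi-likelihood test with Benjamini-Hochberg adjustment over 14754 genes, where 1.15% of all genes were called lower and 0.874% higher in TET1 KO livers (2.02% in all). Their estimates were nevertheless mostly below 0. In 23 of 28, the pseudogene Atp6v0c-ps2 among them, the log2 fold change was negative, against 48.9% of all genes. Over the alternatives it was negative in 21 to 24 of 28. The median was -0.27 against 0.01 for all genes. At an unadjusted p under 0.05, 10 were lower and 0 were higher, a share of 35.7% lower where 12.7% of all genes were lower and 13.6% were higher. DESeq2, the second test, called 2 lower and 0 higher (Atp6v1d and Atp6v1a), against 4.58% and 4.16% of all genes. The TET1 KO livers were all below the WT livers in 6 genes and all above them in 1, where these shares were 10.8% and 11.7% over all genes. The precision was enough to bound most differences within 2-fold, but not within 1.5-fold. In 13 genes the whole 95% interval lay within 1.5-fold of no difference, and in 23 genes within 2-fold. Leaving out TET1 KO replicate 1 brought the median to -0.14, and leaving out WT replicate 2 reduced the genes with an unadjusted p under 0.05 from 10 to 3.

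**Figure D1:**
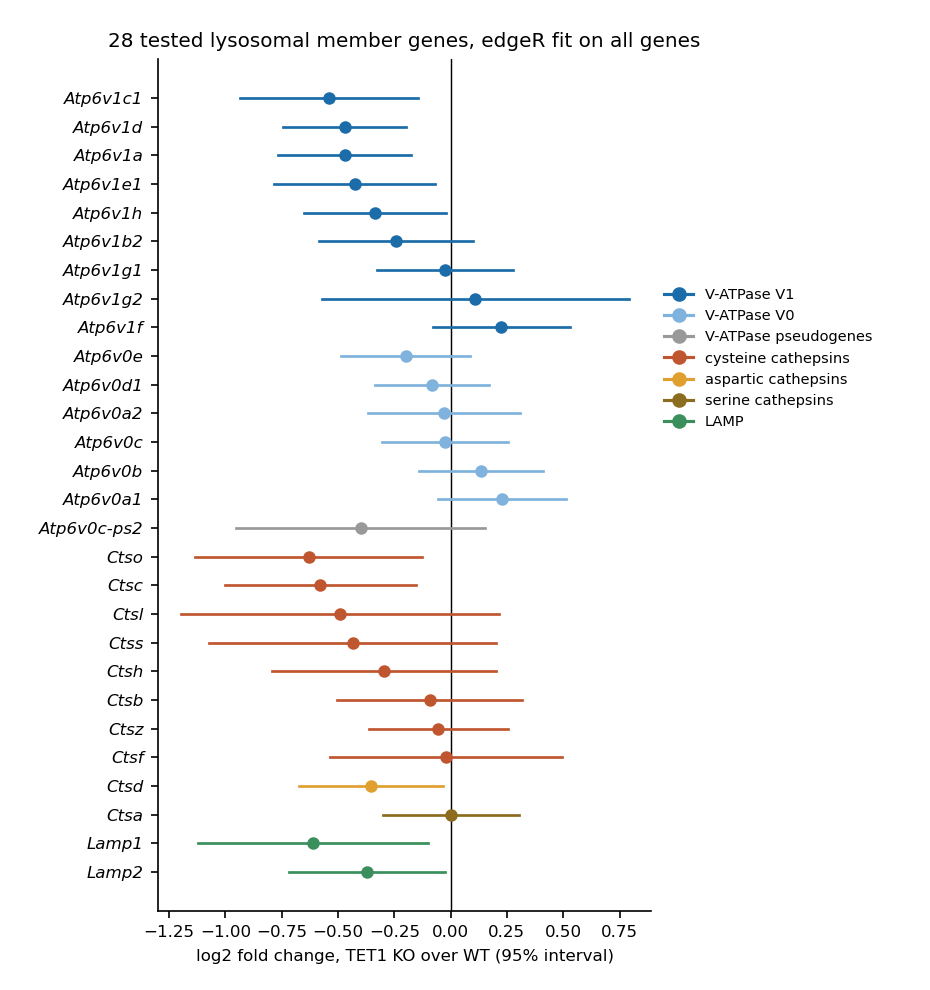
Log2 fold change of TET1 KO over WT (horizontal axis) for the 28 tested genes, with 95% intervals from edgeR, coloured by group. 23 points lie left of 0, 10 intervals lie wholly below 0 and none lies wholly above it.

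The promoters of these genes were read to see which carry the palindromic E-box CACGTG, the core shared by CLEAR-type sites and by other E-box binding factors. RefSeq windows of GRCm38.p6, from 250 bases before to 50 bases after a listed start, were found for 20 of the 28 tested genes. The 250 bases before the start are shown for Lamp1 (chr8:13158911-13159160, plus strand), Ctsd (chr7:142387828-142388077, minus strand) and Atp6v0b (chr4:117887330-117887579, minus strand), which hold more than 1 E-box, and for Lamp2 (chrX:38456461-38456710, minus strand), which holds none. Each is written 5′ to 3′ on the strand of the gene, with the E-box in capitals.
Lamp1: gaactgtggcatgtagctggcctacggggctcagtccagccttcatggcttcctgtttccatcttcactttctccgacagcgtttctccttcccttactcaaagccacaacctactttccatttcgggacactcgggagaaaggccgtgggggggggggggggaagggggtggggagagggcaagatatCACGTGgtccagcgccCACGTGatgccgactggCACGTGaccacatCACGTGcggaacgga
Ctsd: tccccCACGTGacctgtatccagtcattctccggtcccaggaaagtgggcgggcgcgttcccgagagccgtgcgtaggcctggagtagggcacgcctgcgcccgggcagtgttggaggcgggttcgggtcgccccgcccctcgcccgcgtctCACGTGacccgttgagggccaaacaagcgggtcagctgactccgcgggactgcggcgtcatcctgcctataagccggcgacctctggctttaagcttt
Atp6v0b: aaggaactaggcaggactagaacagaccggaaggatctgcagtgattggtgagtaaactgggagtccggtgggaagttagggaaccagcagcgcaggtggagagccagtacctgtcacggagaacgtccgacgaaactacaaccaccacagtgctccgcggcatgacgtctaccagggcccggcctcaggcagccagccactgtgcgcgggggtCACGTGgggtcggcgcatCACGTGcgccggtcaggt
Lamp2: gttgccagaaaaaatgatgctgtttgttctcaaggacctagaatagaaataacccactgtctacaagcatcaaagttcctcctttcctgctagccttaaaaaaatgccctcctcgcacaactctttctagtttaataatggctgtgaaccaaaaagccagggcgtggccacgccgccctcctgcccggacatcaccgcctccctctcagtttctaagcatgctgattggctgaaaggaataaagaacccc
Around 1 E-box each, 30 bases are shown for Atp6v1a (chr16:44139373-44139402, minus strand), Ctsa (chr2:164833749-164833778, plus strand) and Atp6v0d1 (chr8:105566050-105566079, minus strand), in which A follows the capitals. The stretches of Atp6v1a and Ctsa lie inside the RefSeq gene span, before a listed start further in. Ctsa holds a further E-box that starts at the last base shown.
Atp6v1a: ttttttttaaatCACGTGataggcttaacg
Ctsa: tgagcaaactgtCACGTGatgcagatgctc
Atp6v0d1: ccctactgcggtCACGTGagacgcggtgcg
The 4 E-boxes of Lamp1 lie within the last 61 bases before the start, and 8 of all 32851 windows of 300 bases hold 4 or more E-boxes.

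Over the same 300 bases, CACGTG was found in 9 of 20 genes (45.0%), against 8.09% of the 27025 genes with a window. The longer form TCACGTG, which reads CACGTGA on the other strand, was found in 7 of 20 (35.0%), against 4.29% of genes, and each such site is also counted as CACGTG. Both background shares are over all genes with a window, expressed or not, whereas the 20 had at least 10 counts in every library. The 9 genes with an E-box had a median log2 fold change of -0.20, from -0.61 (Lamp1) to 0.13 (Atp6v0b). The 11 genes without one had a median of -0.37, from -0.63 (Ctso) to 0.23 (Atp6v0a1). Thus genes on both sides of 0 were found in both classes, and 3 of the 9 and 5 of the 11 had an unadjusted p under 0.05, all with a lower level, as did 12.7% of all genes. The absence of a match says only that these letters are not in this window.

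**Figure D2:**
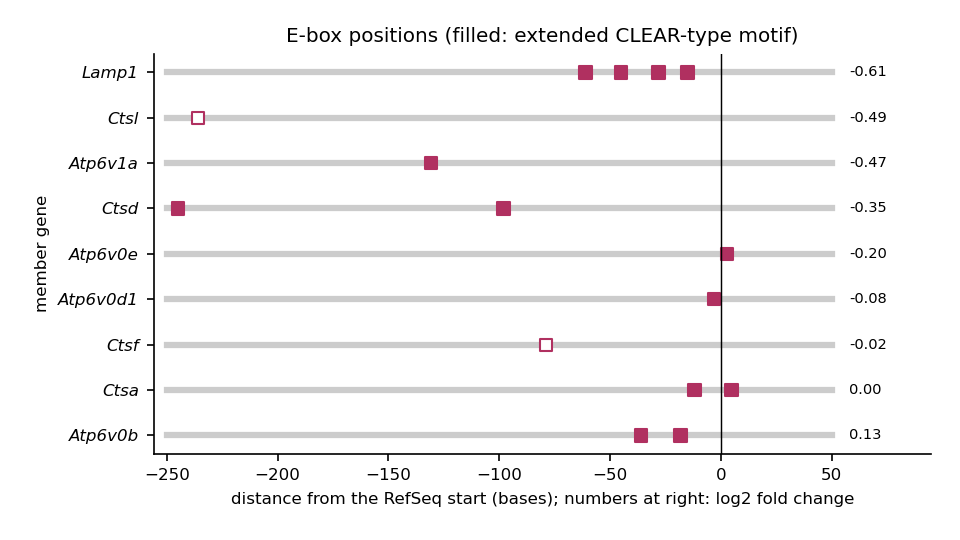
Positions of the E-boxes in the promoter windows of the 9 tested genes that hold one, as distance in bases from the listed RefSeq start of the window (horizontal axis). For Atp6v1a and Ctsa that start lies inside the RefSeq gene span. Filled squares mark the longer CLEAR-type form, and the log2 fold change of TET1 KO over WT is at the right. Lamp1, with 4 sites, has the lowest value and Atp6v0b, with 2 sites, the highest.

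Of the V1 sector, 9 of 13 listed genes were tested, 7 had a negative log2 fold change and the median was -0.34. Atp6v1d, which encodes a subunit of the central stalk, had 36.5, 41.2 and 38.2 CPM in WT and 29.4, 24.9, 27.7 and 29.6 CPM in TET1 KO livers. The groups did not overlap, and the log2 fold change was -0.47 (standard error, SE, 0.12, adjusted p = 0.0670 in edgeR and 0.0170 in DESeq2). Atp6v1a, the catalytic A subunit that binds ATP, had 30.6, 41.2 and 35.7 CPM in WT and 24.5, 27.2, 26.0 and 25.7 CPM in TET1 KO livers. Here too every TET1 KO liver was below every WT liver, with a log2 fold change of -0.47 (SE 0.13, adjusted p = 0.0792 in edgeR and 0.0349 in DESeq2). These were the members with the smallest p, and the only ones under an adjusted p of 0.1 in edgeR, which 5.59% of all genes passed with a lower level and 5.70% with a higher one. Without WT replicate 2, the liver with the highest level of both, the edgeR adjusted p was 0.260 for Atp6v1d and 0.309 for Atp6v1a.

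Atp6v1c1, which encodes a subunit of the peripheral stalk that links V1 to V0, had 24.1, 35.3 and 27.9 CPM in WT and 16.4, 18.5, 20.0 and 25.1 CPM in TET1 KO livers. TET1 KO replicate 4 lay within the WT range, and the log2 fold change was -0.54 (SE 0.18, adjusted p = 0.102 in edgeR). Atp6v1e1, another peripheral stalk subunit and the most abundant V1 gene by CPM, had 80.3, 91.4 and 80.8 CPM in WT and 45.5, 66.2, 66.0 and 72.9 CPM in TET1 KO livers. Its groups did not overlap, with a log2 fold change of -0.43 (adjusted p = 0.135 in edgeR). Atp6v1h, a regulatory subunit, also had groups that did not overlap (46.5 to 54.6 CPM in WT and 32.0 to 45.5 CPM in TET1 KO livers), at a log2 fold change of -0.34 (adjusted p = 0.167 in edgeR). Atp6v1b2, the B subunit found in most tissues, and Atp6v1g1, a stalk subunit, had log2 fold changes of -0.24 (95% interval -0.58 to 0.10, or -0.13 without TET1 KO replicate 1) and -0.03 (95% interval -0.33 to 0.28).

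The other V1 genes had estimates above 0. Atp6v1f, a small subunit near the rotor, had 49.5, 35.9 and 43.7 CPM in WT and 46.1, 53.0, 51.0 and 51.0 CPM in TET1 KO livers. WT replicate 1 lay among the TET1 KO livers, and the log2 fold change was 0.23 (SE 0.14, adjusted p = 0.312 in edgeR), or 0.10 without WT replicate 2. Atp6v1g2, a stalk subunit known mainly from neurons, was far lower in level, with 2.85, 1.41 and 2.65 CPM in WT and 2.00, 1.83, 2.61 and 3.29 CPM in TET1 KO livers. An estimate of 0.11 on the log2 scale had a wide 95% interval (-0.57 to 0.79) and turned negative without WT replicate 2.

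Of the V0 sector, 6 of 9 listed genes were tested, and their median log2 fold change was -0.03, with 4 below and 2 above 0 and none at an unadjusted p under 0.05. Atp6v0d1, which couples the rotor to V1 and was the most abundant V0 gene by CPM in WT livers, had 61.8, 64.0 and 68.9 CPM in WT and 63.2, 64.2, 57.6 and 60.2 CPM in TET1 KO livers. The groups overlapped, and the 95% interval of the log2 fold change of -0.08 ran from -0.34 to 0.17. Atp6v0b, a proteolipid of the proton-carrying ring, had 63.0, 52.9 and 62.5 CPM in WT and 72.4, 61.1, 64.3 and 63.3 CPM in TET1 KO livers, giving a log2 fold change of 0.13 (95% interval -0.14 to 0.41), or 0.049 without WT replicate 2 and 0.082 without TET1 KO replicate 1. Atp6v0c, the main proteolipid, had a log2 fold change of -0.02 (95% interval -0.30 to 0.26). Reads of Atp6v0c and of its processed copies can be hard to separate, and Atp6v0c-ps2, one such copy, had between 12.6 and 16.1 CPM in WT and between 6.39 and 14.7 CPM in TET1 KO livers.

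Atp6v0a1, one of the alternative membrane a subunits, was the only gene of the 28 tested in which all TET1 KO livers were above all WT livers. It had 34.5, 33.8 and 34.8 CPM in WT and 39.3, 39.6, 46.5 and 35.6 CPM in TET1 KO livers, giving a log2 fold change of 0.23 (SE 0.13, adjusted p = 0.273 in edgeR), or 0.14 without TET1 KO replicate 3. Atp6v0a2, an a subunit of the Golgi, had a log2 fold change of -0.03, and Atp6v0e, a small membrane subunit, one of -0.20 (95% interval -0.49 to 0.09). Tcirg1, the a3 subunit, carries another symbol and is described with the accessory genes. A test of V1 against V0 was not made.

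**Figure D3:**
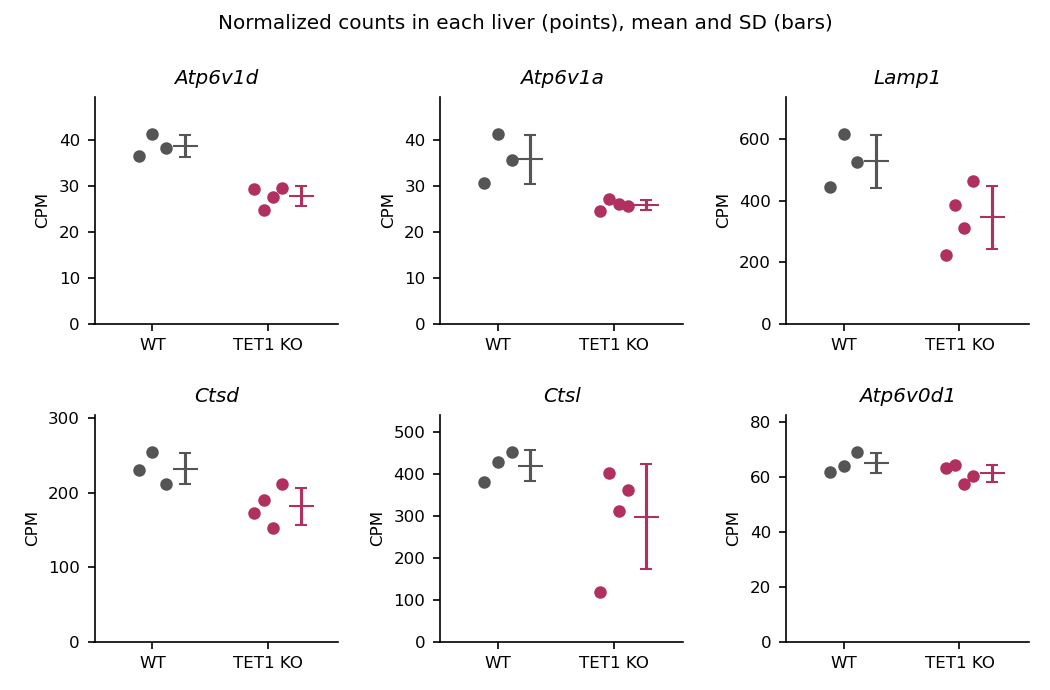
CPM in each of the 3 WT and 4 TET1 KO livers (points) with mean and SD (bars) for 6 of the tested genes, on linear axes that start at 0. The groups are apart for Atp6v1d and Atp6v1a, and overlap for Lamp1, Ctsd, Ctsl and Atp6v0d1.

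Of the 14 cysteine cathepsins, 8 were tested and all 8 had a negative log2 fold change under every scaling tried, although Ctsb, Ctsz and Ctsf changed sign when single livers were left out. Their median was -0.36, and -0.18 without TET1 KO replicate 1. Ctsc, cathepsin C or dipeptidyl peptidase I, which activates serine proteases of immune cells, had 61.3, 72.0 and 80.9 CPM in WT and 35.4, 57.6, 39.7 and 58.5 CPM in TET1 KO livers. It was the only cathepsin whose groups did not overlap, with a log2 fold change of -0.58 (SE 0.19, adjusted p = 0.101 in edgeR and 0.0530 in DESeq2). Ctso had 33.5, 54.9 and 46.0 CPM in WT and 18.8, 36.8, 26.7 and 33.4 CPM in TET1 KO livers. Only TET1 KO replicate 2 lay within the WT range. The log2 fold change of Ctso, -0.63, was the lowest of the 28 tested cathepsin, LAMP and V-ATPase genes (SE 0.23, adjusted p = 0.122 in edgeR).

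Ctsb, cathepsin B, was the most abundant cathepsin by CPM, with 514, 536 and 560 CPM in WT and 383, 554, 441 and 636 CPM in TET1 KO livers. The TET1 KO livers lay on both sides of the WT livers, and the log2 fold change was -0.09 (95% interval -0.50 to 0.32). Ctsl, cathepsin L, a major endopeptidase of the lysosome, was picked out after its values were seen, because 1 liver set its spread. It had 380, 428 and 452 CPM in WT and 118, 403, 311 and 363 CPM in TET1 KO livers, giving a log2 fold change of -0.49 (SE 0.32, adjusted p = 0.342 in edgeR). Without TET1 KO replicate 1 that log2 fold change was -0.23.

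Ctss, cathepsin S, is best known from antigen-presenting cells. It had 36.6, 26.7 and 45.6 CPM in WT and 18.0, 33.1, 17.2 and 38.9 CPM in TET1 KO livers, giving a log2 fold change of -0.44 (adjusted p = 0.350 in edgeR). The summed macrophage markers of the same livers were 362, 312 and 522 CPM in WT and 247, 411, 278 and 519 CPM in TET1 KO livers, so TET1 KO replicates 1 and 3 were the lowest of the 7 livers in both. This was not particular to Ctss. The same livers were also the lowest in Ctsb, Ctsc, Ctsd, Ctsh, Ctsl, Ctso and Lamp1, but not in Ctsa, Ctsf, Ctsz or Lamp2. Of the 16 macrophage markers 12 had a negative log2 fold change, the median was -0.21 and 0 were called in edgeR or DESeq2. Their part in the cathepsin levels was not tested. Leaving out single livers moved the log2 fold change of Ctss between -0.67 (without TET1 KO replicate 4) and -0.26 (without WT replicate 3). Ctsh, an aminopeptidase, had a log2 fold change of -0.29, and of -0.11 without TET1 KO replicate 1. Ctsz, a carboxypeptidase, had one of -0.06 and Ctsf one of -0.02.

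The aspartic protease Ctsd, cathepsin D, had 231, 254 and 212 CPM in WT and 172, 190, 153 and 212.1 CPM in TET1 KO livers. TET1 KO replicate 4 was level with the lowest WT liver and the other TET1 KO livers were below all of the WT livers, with a log2 fold change of -0.35 (SE 0.15, adjusted p = 0.158 in edgeR). The serine carboxypeptidase Ctsa, cathepsin A, which protects beta-galactosidase and neuraminidase in the lysosome, had an estimate at 0. It had 135, 106 and 129 CPM in WT and 112, 140, 121 and 121.5 CPM in TET1 KO livers. The estimate was 0.00 on the log2 scale with a 95% interval of -0.30 to 0.30, and its sign was negative with DESeq2, with DESeq2 size factors and with library size only.

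Both tested LAMP genes had estimates below 0 and an unadjusted p under 0.05. Lamp1, the gene with the 4 E-boxes shown above, had 443, 615 and 527 CPM in WT and 222.0, 386, 312 and 464 CPM in TET1 KO livers. TET1 KO replicate 4 lay just within the WT range and TET1 KO replicate 1 was the lowest, with a log2 fold change of -0.61 (SE 0.23, adjusted p = 0.133 in edgeR and 0.0666 in DESeq2). Lamp2, whose products also take part in the fusion of autophagosomes and in chaperone-mediated autophagy, had 443, 529 and 451 CPM in WT and 294, 401, 392 and 380.2 CPM in TET1 KO livers. Its groups did not overlap, with a log2 fold change of -0.37 (SE 0.16, adjusted p = 0.166 in edgeR).

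The livers differed within each genotype. TET1 KO replicate 1 had the lowest level of the 7 livers in 15 of the 28 tested genes, and WT replicate 2 had the highest level in 11 and the lowest in 7. As the median over the 28 genes of log2 CPM minus each gene's mean over the livers, the WT livers stood at 0.13, 0.19 and 0.16 and the TET1 KO livers at -0.26, 0.02, -0.09 and 0.01. On the same scale the median over all tested genes lay between -0.01 and 0.01 in every liver. For the cysteine cathepsins, TET1 KO replicate 1 stood at -0.67, and the other TET1 KO livers at 0.12, -0.18 and 0.19, next to 0.07, 0.38 and 0.33 in WT. For V0 subunits, all 7 livers stood between -0.06 and 0.04. Together the 47 genes held 0.346%, 0.388% and 0.359% of the counts of the WT libraries and 0.217%, 0.302%, 0.261% and 0.335% of those of the TET1 KO libraries. By both measures TET1 KO replicate 1 was the lowest of the 7 livers and every TET1 KO liver was below every WT liver. Without TET1 KO replicate 1, 21 of 28 genes had a negative log2 fold change and 7 had an unadjusted p under 0.05 with a lower level.

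**Figure D4:**
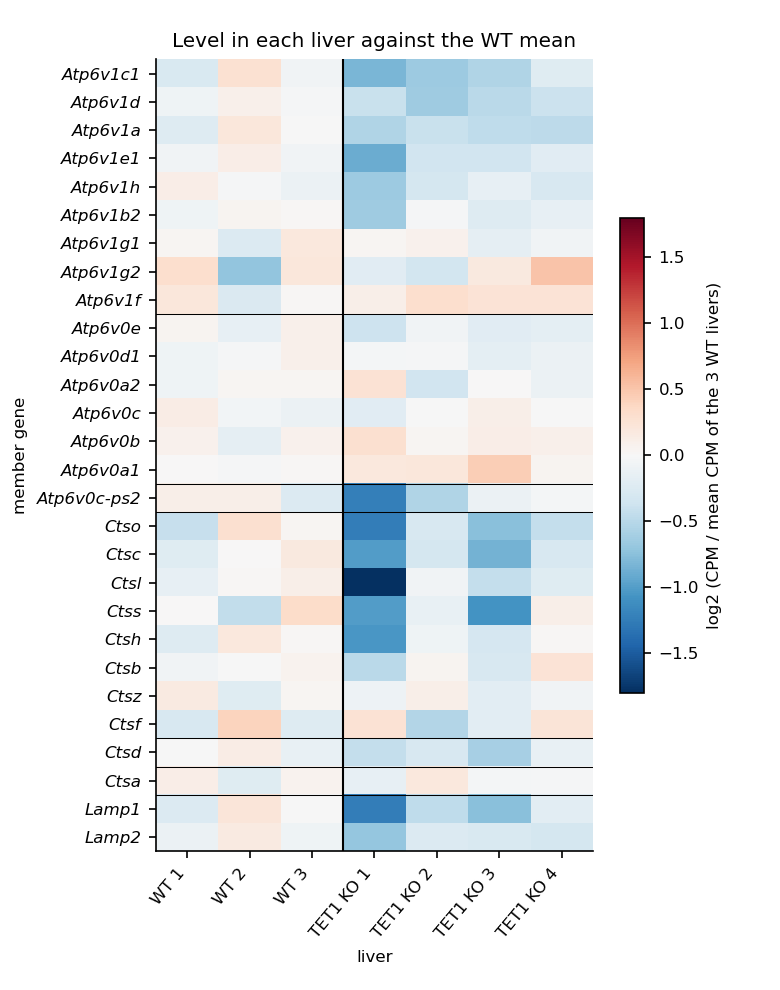
Level of the 28 tested genes (rows, grouped by class) in the 7 livers (columns), as log2 of CPM over the mean CPM of the 3 WT livers, from blue (lower) to red (higher). The column of TET1 KO replicate 1 is the darkest blue, above all in most cysteine cathepsins, Lamp1 and Atp6v0c-ps2. In that liver Ctsf is above the WT mean and Ctsz close to it. The V0 rows stay pale in most livers.

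Levels between genes were compared per kilobase of exon. Lamp1 stood highest in WT livers at 234 ± 38.1 CPM per kb (SD, n = 3), followed by Ctsl at 213 ± 18.5 CPM per kb, and these did not differ beyond their spread. Ctsz (140 ± 18.5), Ctsb (113 ± 4.85) and Ctsd (92.3 ± 8.40 CPM per kb) came next, so the most abundant messages were those of the membrane protein and of the proteases. Among V-ATPase subunits, levels per kb ran from 70.0 ± 5.23 for Atp6v1e1 to 0.918 ± 0.311 for Atp6v1g2. The catalytic Atp6v1a and its partner Atp6v1b2 were low by this measure, at 5.93 ± 0.884 and 5.87 ± 0.258 CPM per kb, although their protein products sit side by side in the same ring. In TET1 KO livers Lamp1 stood at 153 ± 45.8 and Ctsl at 151 ± 63.9 CPM per kb (SD, n = 4).

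**Figure D5:**
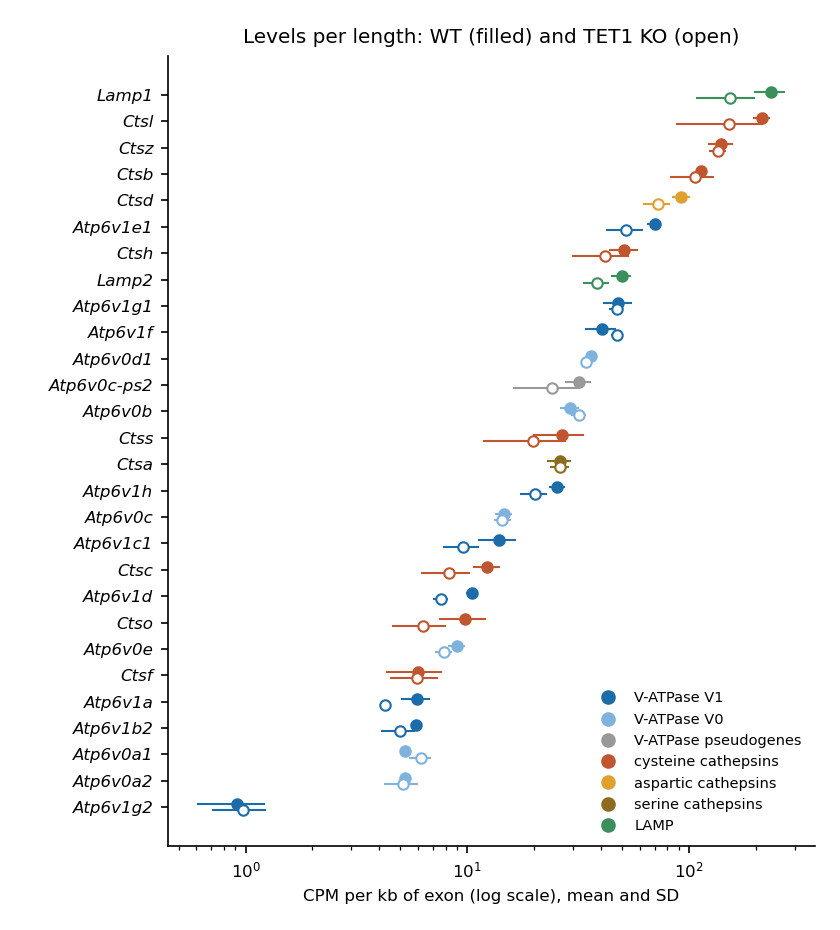
CPM per kilobase of exon (log axis) of the 28 tested genes in WT (filled) and TET1 KO (open) livers, as mean and SD, coloured by group. Levels run from 0.918 CPM per kb for Atp6v1g2 to 234 CPM per kb for Lamp1 in WT livers, and most open symbols lie at or left of the filled ones.

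The members outside the test are mostly known from other tissues. No counts were found for Ctsm, Ctsq and Ctsr, members of a cathepsin cluster known from the rodent placenta, nor for Lamp5, Atp6v1fnb, Atp6v1c2 and Atp6v1e2. Ctsj, Ctsg, Atp6v0c-ps1, Atp6v0a4, Atp6v1b1 and Atp6v1g3 had counts too low for edgeR's filter, among them the V-ATPase isoforms known from kidney and epididymis. A further 6 passed edgeR's filter but not the minimum of 10 counts in every library. Ctse, an aspartic protease known from the stomach, had 27, 18 and 9 counts in WT and 2, 3, 1 and 25 counts in TET1 KO livers. Atp6v0d2, a d subunit known from osteoclasts and macrophages, had 30, 33 and 12 counts in WT and 3, 52, 43 and 55 counts in TET1 KO livers. Ctsk, Ctsw and Lamp3 had between 5 and 20 counts, and Atp6v0e2 had 19, 18 and 19 counts in WT and 3, 6, 9 and 14 counts in TET1 KO livers. Atp6v0e2 passed edgeR's filter through the WT livers, where its counts were higher, so its lower counts in TET1 KO livers are not read as a difference. The 95% interval of the log2 fold change of Ctse ran from -2.63 to 0.59.

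The genes that build, feed and regulate the lysosome were taken from lists written for this comparison. Of 40 other lysosomal hydrolases and their activators, all 40 were tested and 30 had a negative log2 fold change, with a median of -0.15. In edgeR 1 was called lower and 0 higher, against 1.15% and 0.874% of all genes, with 8 lower and 1 higher at an unadjusted p under 0.05, against 12.7% and 13.6%. DESeq2 called 5 lower (Lipa, Arsb, Ppt1, Hexa and Psap) and 1 higher (Hyal1), against 4.58% and 4.16%. The gene that fell in edgeR was Lipa, the acid lipase that hydrolyses cholesteryl esters and triglycerides in the lysosome. It had 151, 211 and 143 CPM in WT and 71.9, 89.3, 80.1 and 109 CPM in TET1 KO livers. Every TET1 KO liver was below every WT liver, with a log2 fold change of -0.95 (SE 0.18, adjusted p = 0.0280 in edgeR and 0.000189 in DESeq2). With 1 liver left out the call remained in 3 of 7 fits, and the highest adjusted p was 0.142, without WT replicate 2, followed by 0.0945, 0.0713 and 0.0506 without TET1 KO replicates 3, 2 and 1. Arsb, the sulfatase of dermatan and chondroitin sulfate, had a log2 fold change of -0.94 (adjusted p = 0.0542 in edgeR and 0.00416 in DESeq2).

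Among 13 accessory and assembly genes of the V-ATPase, 9 had a negative log2 fold change and 0 were called in edgeR in either direction, with 4 lower and 3 higher at an unadjusted p under 0.05 (12.7% and 13.6% of all genes) and 3 lower (Vma21, Wdr7 and Oxr1) and 0 higher in DESeq2 (4.58% and 4.16% of all genes). Vma21, an assembly chaperone of V0, and Wdr7, a partner of the V1 assembly factors, had log2 fold changes of -0.48 (adjusted p = 0.0675 in edgeR and 0.0192 in DESeq2) and -0.68 (adjusted p = 0.0840 in edgeR and 0.0381 in DESeq2). Tcirg1, the a3 membrane subunit, had 40.7, 28.2 and 39.8 CPM in WT and 62.6, 42.1, 55.8 and 44.5 CPM in TET1 KO livers. Its groups did not overlap, with a log2 fold change of 0.50 (adjusted p = 0.123 in edgeR), a direction shared with Atp6v0a1. The accessory subunits Atp6ap1 and Atp6ap2 had log2 fold changes of -0.07 (95% interval -0.35 to 0.21) and -0.30 (95% interval -0.57 to -0.02). With 1 liver left out, that of Atp6ap1 ran from -0.16 to -0.035.

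Of 25 tested genes of MiT/TFE factors and of the mTORC1-Ragulator complex, which senses lysosomal nutrients, 0 were called in edgeR, with 3 lower and 5 higher at an unadjusted p under 0.05 (12.7% and 13.6% of all genes) and 1 lower (Rraga) and 0 higher in DESeq2 (4.58% and 4.16% of all genes). Tfeb had 7.97, 8.42 and 6.57 CPM in WT and 16.7, 11.3, 11.9 and 9.56 CPM in TET1 KO livers. Each TET1 KO liver was above the WT livers, with a log2 fold change of 0.69 (SE 0.20, adjusted p = 0.0849 in edgeR and 0.0521 in DESeq2). Over all alternatives its adjusted p ran from 0.0459 to 0.269, and without TET1 KO replicate 4 it was 0.0486 in edgeR. Its relatives Tfe3 and Mitf had log2 fold changes of -0.01 (95% interval -0.30 to 0.28) and 0.16 (95% interval -0.51 to 0.83). Rraga, a small GTPase that recruits mTORC1 to the lysosome, had 20.9, 29.0 and 22.9 CPM in WT and 8.45, 13.7, 16.6 and 15.0 CPM in TET1 KO livers, giving a log2 fold change of -0.85 (adjusted p = 0.0641 in edgeR and 0.00916 in DESeq2). These are mRNA levels, and the location of TFEB in the cell was not measured.

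Of 25 other membrane proteins of the lysosome tested, 0 were called in edgeR, with 3 lower and 2 higher at an unadjusted p under 0.05 (12.7% and 13.6% of all genes) and 1 lower and 1 higher in DESeq2 (4.58% and 4.16% of all genes). Laptm4b had a log2 fold change of -0.61 (adjusted p = 0.0692 in edgeR and 0.0231 in DESeq2). Npc1, the cholesterol exporter of the lysosome, had one of 0.56 (adjusted p = 0.0779 in edgeR and 0.0371 in DESeq2) with 76.4, 88.3 and 63.1 CPM in WT and 131, 112, 113 and 93.0 CPM in TET1 KO livers. Lipa and Npc1, which act one after the other on lysosomal cholesterol, thus had estimates of opposite sign. In both the groups did not overlap, as in 10.8% of all genes with a lower level and 11.7% with a higher one. Npc2, another gene of this list, had a log2 fold change of -0.22 (95% interval -0.71 to 0.26) and groups that overlapped.

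Of 11 genes of mannose 6-phosphate sorting, the route by which cathepsins reach the lysosome, 0 were called in edgeR, with 1 lower and 1 higher at an unadjusted p under 0.05 (12.7% and 13.6% of all genes) and 1 lower and 0 higher in DESeq2 (4.58% and 4.16% of all genes). The receptor gene Igf2r had a log2 fold change of -0.45 (adjusted p = 0.0873 in edgeR and 0.0490 in DESeq2) and Sort1, an alternative sorting receptor, one of 0.74 (adjusted p = 0.0916 in edgeR and 0.0574 in DESeq2). The cathepsin inhibitors Cstb and Cst3 had log2 fold changes of -0.43 (95% interval -1.02 to 0.16, or -0.20 without TET1 KO replicate 1) and -0.07 (95% interval -0.41 to 0.28), and neither was under an unadjusted p of 0.05. Of 18 autophagosome genes 0 were called in edgeR, with 2 in each direction at an unadjusted p under 0.05 (12.7% and 13.6% of all genes) and 1 in each direction in DESeq2 (4.58% and 4.16% of all genes). Atg5, which is needed for the growth of the autophagosome membrane, had a log2 fold change of -0.62 (adjusted p = 0.0501 in edgeR and 0.00490 in DESeq2), and Tecpr1, a tether of autophagosomes and lysosomes, one of 0.71 (adjusted p = 0.0621 in edgeR and 0.0129 in DESeq2). Over the 15 fits, the main one and DESeq2 included, Atg5 was called in 7 and Tecpr1 in 4.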

How the data were processed

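RNA sequencing of 3 WT and 4 TET1 KO livers was analysed, grouped by the sample labels. The authors deposited 1 table of raw counts per gene and mouse, not normalized. The submitters' processing notes name Trimmomatic 0.36, GSNAP, featureCounts 1.5.3 and GRCm38. The kit was stranded, but the strand setting of the counting is not given in the sources used here, so overlapping genes and close copies are uncertain. Tables were joined by Ensembl identifier, because 26 symbols were turned into dates in 1 table, and 5 repeated entries were left out.

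The counts were fitted in R 4.3.3 with edgeR 4.0.16 (filterByExpr, TMM, glmQLFit with legacy = FALSE, no covariates, two-sided), with Benjamini-Hochberg adjustment over 14754 genes and calls at an adjusted p under 0.05. Low coverage was bounded by 3 counts per library. Depth was 15005277 to 22746138 counts, and every pair of libraries of 1 genotype differed by more than sampling noise (lowest chi-square per degree of freedom 24.9). DESeq2 1.42.0, DESeq2 size factors, library size only, other filters, the replicate number as a block, robust dispersions and leaving out each liver were the alternatives. The scripts were tested on simulated data. Exon lengths came from GENCODE M1 by identifier, and coordinates and promoters from RefSeq (GRCm38.p6). Figures used matplotlib 3.10.9 in Python 3.11.

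The gene families, matched by symbol, and the lists were chosen with earlier results of these data known. Values in every liver are given for cathepsin, LAMP and V-ATPase genes called by either tool, the 5 genes of smallest p in each direction and the most abundant gene of each group. Ctsl, Ctss, Lamp2 and the livers of Tfeb, Rraga, Npc1 and Tcirg1 were added after their values were seen. From each pathway list, the genes called in edgeR and the 2 with the smallest p are named, most without values in every liver. Genes called in DESeq2 are also named beside counts of 5 or fewer. The labels give no batch or date. Tmem55b, 1 listed gene, was not found under that symbol.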

Additional observations from a re-analysis of the deposited data

Results flagged for a closer look

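The 4 TET1 KO livers, but not the WT livers, were examined gene by gene for the 28 tested genes and 19 pathway genes. In 1 of these 47 genes a liver lay far from the others, where about 1 in 20 would by chance. Atp6ap1, an accessory subunit of the V-ATPase, had 51.5, 53.0, 51.8 and 65.4 CPM in the TET1 KO livers, so that the gap between TET1 KO replicate 4 and the next liver was 0.891 of the whole range.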

How the results depend on the processing

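Of the 28 tested cathepsin, LAMP and V-ATPase genes, none was called higher under any alternative. None was called lower except in DESeq2 (2, Atp6v1a and Atp6v1d), at an adjusted p under 0.1 (2, the same genes) and with the replicate block (4, Atp6v1c1, Ctsc, Ctso and Lamp1). The cause was not tested. Leaving out each liver in turn gave 0 lower calls in all 7 fits and a median log2 fold change of -0.35 to -0.14, and scaling to library size only gave -0.36 while moving the median of all genes to -0.08. Over all genes, 298 were called, against 1315 in DESeq2, 592 with no filter on low counts, 1327 with the replicate block, and between 37 (without WT replicate 2) and 891 (without TET1 KO replicate 4) with 1 liver left out. Of the calls, 129 of 298 were higher in TET1 KO livers, and 107 of 419 with library size only.

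The replicate numbers were not shown to pair the livers, since same-numbered livers correlated at 0.25, -0.12 and -0.14 in their deviations from the group means, and 1 of 3 WT livers correlated best with its own number. The block also took the pathway genes Arsb, Atg5, Npc1, Rraga, Tcirg1, Tecpr1 and Tfeb (adjusted p = 0.0459) past the threshold. Its calls are given here, and TET1 KO replicate 4 has no partner in it. It also put Atp6v1g2 at -0.068.

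Estimates near 0 changed sign. With 1 liver left out, the log2 fold change ran from -0.22 to 0.019 for Ctsb, -0.16 to 0.23 for Ctsf, -0.16 to 0.025 for Ctsz, -0.10 to 0.060 for Ctsa, -0.14 to 0.046 for Atp6v0a2, -0.091 to 0.039 for Atp6v0c, -0.14 to 0.056 for Atp6v1g1, -0.17 to 0.29 for Atp6v1g2, -0.041 to 0.37 for Mitf, -0.095 to 0.045 for Tfe3 and -0.16 to 0.044 for Cst3. Ctsa stood at -0.020 in DESeq2, -0.010 with DESeq2 size factors, -0.091 with library size only, -0.023 with no filter and -0.0028 with at least 10 counts in every library. Depth limits the 12 genes with fewer counts.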
